A study of Mus musculus with 12 samples.

Results

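The platelet-derived growth factor (PDGF) family comprised 6 of the 54532 genes counted in these tumours, the ligand genes Pdgfa, Pdgfb, Pdgfc and Pdgfd and the receptor genes Pdgfra and Pdgfrb. They were chosen by name. All 6 passed the filter on low counts that left 15650 genes for testing. RNA was sequenced in bulk from 12 mouse tumours labelled as malignant peripheral nerve sheath tumour, a sarcoma of the nerve sheath. Every tumour was raised with an adenovirus carrying Cas9 against Nf1 and Cdk2na (the labels' spelling, taken to mean Cdkn2a), in mice labelled as strain C57B/6 and genotype WT. The vehicle group held 4 tumours taken at the terminal harvest. The regressing group held 4 tumours taken during regression, and the terminal combination group 4 taken at the terminal harvest. Both of these groups received the CDK4/6 inhibitor palbociclib at 100 mg/kg with the MEK inhibitor mirdametinib at 1 mg/kg, and every mouse was dosed daily by oral gavage. Ages are not given in the sources used here, and the labels do not say whether each tumour came from its own mouse. The p-values therefore take the library as the unit and set differences against spread estimated between libraries.

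PDGF ligands are secreted as disulphide-linked dimers that bring receptor chains together, which then phosphorylate each other on tyrosine and recruit proteins that couple them to RAS, phosphoinositide 3-kinase and phospholipase C. PDGF-A and PDGF-B are cut by convertases before secretion, whereas PDGF-C and PDGF-D leave the cell latent and become active when a protease removes their CUB domain. The alpha receptor binds PDGF-A, PDGF-B and PDGF-C chains and marks fibroblasts and other mesenchymal cells. The beta receptor binds PDGF-B and PDGF-D and is carried by pericytes, smooth muscle and fibroblasts. Endothelial PDGF-B is the signal that draws pericytes onto new vessels. In nerve sheath tumours with lost NF1, PDGF receptors have been studied as growth factor receptors acting upstream of RAS, the protein that NF1 restrains and whose MEK branch mirdametinib blocks.

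The series asked how vehicle-treated tumours, tumours that respond to the combination and tumours that resist it differ in expression. Total counts ran from 13194699 to 22639625 reads a library, so 3 reads correspond to 0.133 to 0.227 CPM (the usual depth-scaled count, taken over the library size after normalisation). No gene passed an adjusted p of 0.05 in edgeR's quasi-likelihood test in any comparison, which is 0% of the 15650 tested. The titles of 4 libraries, 2 vehicle, 1 regressing and 1 terminal combination, end in FFT, a mark with no stated meaning. Schwann lineage markers, checked for the labelled tumour type, were mixed and summed over the list to 52.2 to 333 CPM in vehicle, 66.6 to 77.1 in regressing and 48.7 to 123 in terminal combination tumours. Sox10, a defining factor, lay between 0 and 0.0856 CPM in vehicle, 0.54 and 1.16 in regressing, and 0 and 2.10 in terminal combination tumours, while Gap43, Egr2 and Erbb3 reached 208.5, 114.6 and 37.04 CPM among vehicle tumours. Fibroblast markers summed to 15010 to 39260 CPM over the 12 tumours. Nf1 transcript was counted in every tumour (10.2 to 23.8 CPM) and Cdkn2a ranged from 5.08 to 393 CPM. A total count over a targeted gene does not show whether it was cut.

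On GRCm38, Pdgfa (ENSMUSG00000025856) lies on the minus strand at 5:138976014-138997370 and Pdgfb (ENSMUSG00000000489) on the minus strand at 15:79995874-80014977. Pdgfc (ENSMUSG00000028019) lies on the plus strand at 3:81036416-81214040 and Pdgfd (ENSMUSG00000032006) on the plus strand at 9:6168584-6378850. The receptor genes are both on plus strands, Pdgfra (ENSMUSG00000029231) at 5:75152292-75198215 and Pdgfrb (ENSMUSG00000024620) at 18:61045150-61085061. The antisense gene 6330403L08Rik shares 813 exonic bases with Pdgfa and was credited with 2369 reads over the series, against 6805 for Pdgfa. Because the strand used in counting is not stated, reads of that pair may not be told apart. Genes overlapping the other members were credited with at most 47 reads each.

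Among the classical ligands, Pdgfa, whose product activates the alpha receptor, was measured in CPM at 39.5, 27.3, 24 and 33.0 in vehicle tumours 1 to 4, at 29.5, 29.4, 35.9 and 14.6 in regressing tumours 1 to 4, and at 18.3, 33.8, 39.7 and 43.3 in terminal combination tumours 1 to 4. The same order of tumours is used for each gene. Its group means were 30.9 ± 6.79, 27.4 ± 9.04 and 33.8 ± 11.01 CPM (SD, n = 4 each). The 3 groups overlapped throughout, with the highest and the second lowest value both in terminal combination tumours.

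Pdgfb encodes the ligand that binds both receptors. It was measured at 27.6, 13.6, 27.2 and 26.4 CPM in vehicle, 29.5, 35.1, 26.8 and 28.2 in regressing, and 23.8, 20.7, 20.8 and 36.1 in terminal combination tumours. Its means were 23.7 ± 6.76, 29.9 ± 3.67 and 25.3 ± 7.30 CPM (SD, n = 4 each). Vehicle tumour 2 was the lowest of all, and the other 3 vehicle values lay within the range of the remaining 8 tumours. The coefficient of variation over the 12 tumours, 23.5%, was the smallest of the 6 members and stood at the 46.5th percentile of the 5240 tested genes whose mean CPM lay within 2-fold of its own.

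Of the CUB-domain ligands, Pdgfc encodes PDGF-C, which acts mainly through the alpha receptor. It was measured at 154.8, 90.3, 75.2 and 74.2 CPM in vehicle, 52.6, 102.7, 104.4 and 20.1 in regressing, and 69.1, 75.8, 50.4 and 74.7 in terminal combination tumours. The means were 98.6 ± 38.1, 69.95 ± 41.0 and 67.5 ± 11.8 CPM (SD, n = 4 each). Regressing tumours split widely, tumour 4 being the lowest of the 12 and tumours 2 and 3 standing next after vehicle tumour 1, the highest. Pdgfd, encoding a ligand of the beta receptor, had the fewest reads of the 6 (2523 over the series). Its CPM were 3.55, 14.9, 8.34 and 7.41 in vehicle, 18.8, 2.90, 6.34 and 12.3 in regressing, and 15.1, 14.2, 31.8 and 6.28 in terminal combination tumours. Its means were 8.56 ± 4.73, 10.1 ± 6.98 and 16.8 ± 10.7 CPM (SD, n = 4 each). Terminal combination tumour 3 had the highest Pdgfd, and all 3 groups overlapped.

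By mean CPM, the receptor gene Pdgfra lay at the 97.7th percentile of all tested genes and the receptor gene Pdgfrb at the 95.7th. This ranking takes no account of gene length. Pdgfra CPM were 241.9, 1075, 198.7 and 101.7 in vehicle, 360.3, 254.2, 173.2 and 572.6 in regressing, and 469.4, 980.3, 77.0 and 257.2 in terminal combination tumours. The means were 404.3 ± 451.0, 340.1 ± 172.9 and 446.0 ± 390.6 CPM (SD, n = 4 each), so in vehicle tumours the SD exceeded the mean. Pdgfra was the most variable member, with a ratio of 13.9 between the highest and the lowest tumour. Its coefficient of variation of 82.6% was at the 93.0th percentile of 673 tested genes of like mean, whose median was 23.1%. High and low Pdgfra occurred in every group: vehicle tumour 2 and terminal combination tumour 2 were the highest, and terminal combination tumour 3 and vehicle tumour 4 the lowest. In bulk samples, fewer Pdgfra-expressing cells and less Pdgfra RNA per cell cannot be told apart, and the same holds for every gene here.

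Pdgfrb CPM were 389.8, 281.1, 202.0 and 132.0 in vehicle, 167.1, 187.8, 183.6 and 165.8 in regressing, and 173.6, 407.0, 118.5 and 416.7 in terminal combination tumours. The means were 251.2 ± 110.7, 176.0 ± 11.3 and 279.0 ± 155.1 CPM (SD, n = 4 each). The 4 regressing tumours were nearly equal, with a ratio of 1.13 between highest and lowest, against 2.95 in vehicle and 3.52 in terminal combination tumours, and they fell inside the range of both other groups. Whether the spread differs between groups was not tested. The same 4 regressing tumours spanned 173.2 to 572.6 CPM in Pdgfra.

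**Figure D1:**
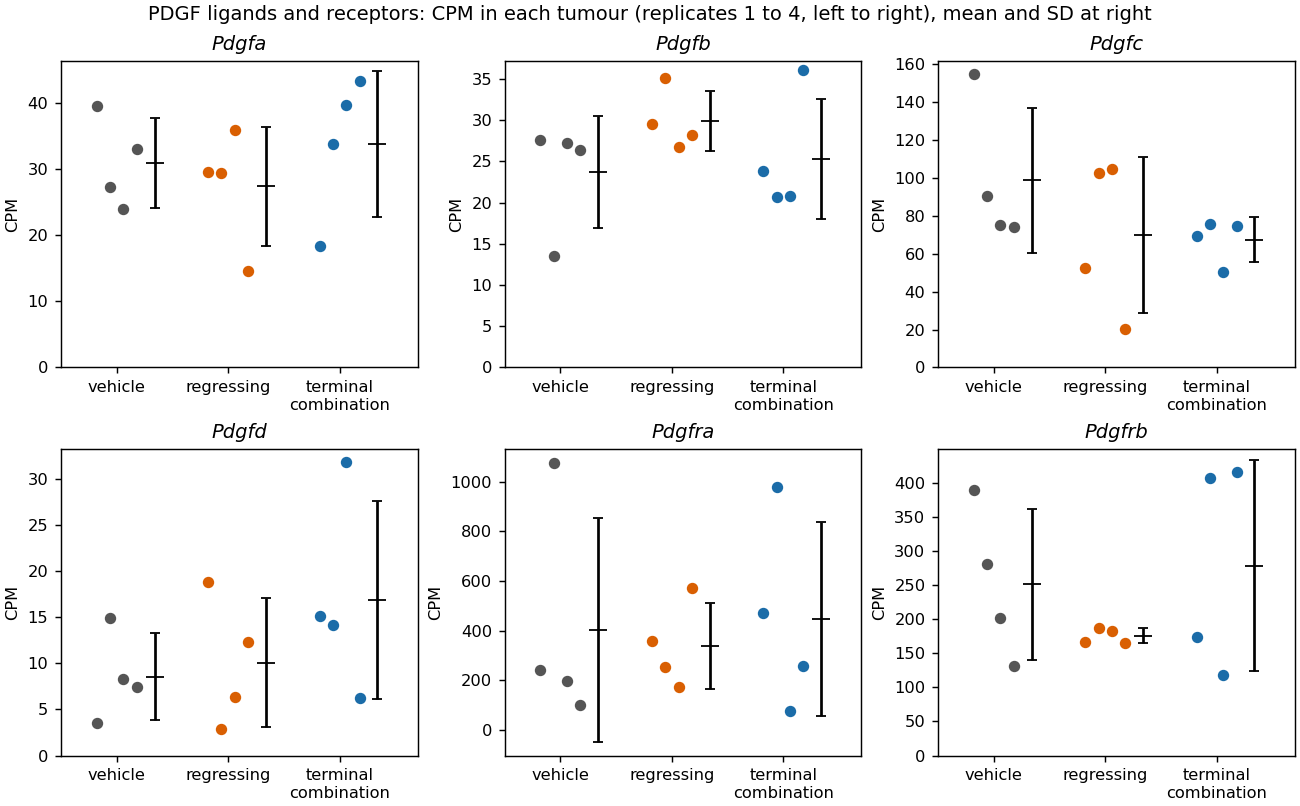
CPM (linear axis) of each of the 6 PDGF genes in the vehicle, regressing and terminal combination tumours, 1 point a tumour, with the mean and SD of 4 at the right of each group. The groups overlap for every gene, with the 4 regressing tumours close together in Pdgfrb (165.8 to 187.8 CPM).

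Levels of the 6 members were compared with one another per length, as CPM per kilobase of the gene's merged exons. On that scale the medians over the 12 tumours were 33.9 for Pdgfrb, 25.5 for Pdgfra, 14.7 for Pdgfc, 10.01 for Pdgfa, 6.48 for Pdgfb and 3.27 for Pdgfd. The order of the receptors was not settled by these data: Pdgfrb was above Pdgfra in 7 of 12 tumours. Per kilobase of the longest coding transcript the medians turned round, 37.4 for Pdgfra against 34.2 for Pdgfrb, with Pdgfrb above in 6 of 12. Pdgfra exceeded Pdgfc in 8 of 12 tumours, so these neighbours overlapped too. The ligands were better ordered, Pdgfc being above Pdgfa in 10, Pdgfa above Pdgfb in 11 and Pdgfb above Pdgfd in 10 of the 12 tumours, by either length.

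**Figure D2:**
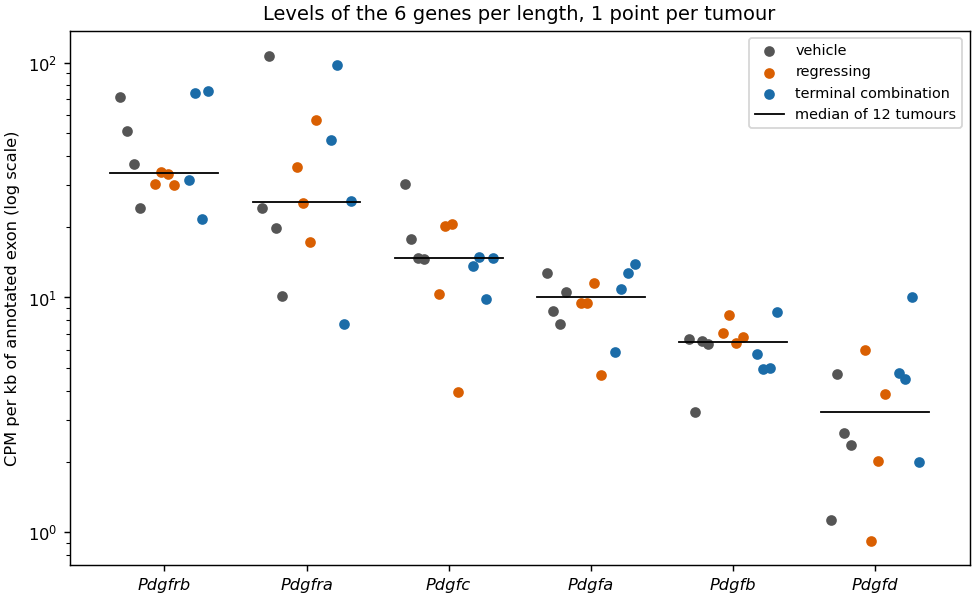
CPM per kilobase of merged exons, on a log axis, for the 6 PDGF genes in order of their medians. Each point is 1 of the 12 tumours and the bar is the median, from 33.9 for Pdgfrb to 3.27 for Pdgfd, and the points of the 2 receptors overlap.

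In regressing tumours compared with vehicle tumours, which differ in both treatment and harvest, none of the 6 PDGF genes passed the test. Pdgfb was higher by 0.33 on the log2 scale (SE 0.25, 95% interval -0.22 to 0.88, edgeR adjusted p = 0.597) and Pdgfd by 0.24 (interval -1.12 to 1.60, adjusted p = 0.889). The other 4 were lower, Pdgfrb at -0.51 (SE 0.41, interval -1.41 to 0.39, adjusted p = 0.623), Pdgfc at -0.50 (interval -1.45 to 0.46), Pdgfra at -0.25 (interval -2.01 to 1.51) and Pdgfa at -0.18 (interval -0.86 to 0.51). The intervals for Pdgfa and Pdgfb lay within 1 log2 unit of equality, and those for the other 4 did not. Unadjusted, 0 of 6 members had p under 0.05, against 12.7% of all genes tested, and 0 of 6 had groups that did not overlap, against 7.64%. DESeq2 called 0 of the 6, its lowest adjusted p being 0.582, against 3.17% of all genes.

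In terminal combination tumours compared with vehicle tumours, both taken at the terminal harvest, 0 of 6 members passed. Pdgfd had the largest difference of the 6, 0.98 higher on the log2 scale (SE 0.62, 95% interval -0.39 to 2.35, adjusted p = 0.870). Pdgfc was lower, at -0.55 (interval -1.5 to 0.40, adjusted p = 0.895). Pdgfa, Pdgfb, Pdgfra and Pdgfrb were within 0.15 of equality, at 0.13, 0.10, 0.14 and 0.15. For Pdgfb the interval, -0.45 to 0.64, was the narrowest, and for Pdgfra, -1.62 to 1.90, the widest. Of the members, 0 of 6 had unadjusted p under 0.05 against 5.91% of all genes, 0 of 6 had groups without overlap against 2.5%, and DESeq2 called 0 of 6 against 0.0902%.

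Between terminal combination and regressing tumours, which received the same drugs, 0 of 6 members passed. Pdgfd was 0.74 higher in terminal combination tumours (95% interval -0.62 to 2.10, adjusted p = 0.804) and Pdgfrb 0.66 higher (SE 0.41, interval -0.24 to 1.56, adjusted p = 0.755). Pdgfra and Pdgfa were 0.39 and 0.30 higher, Pdgfb stood at -0.24 and Pdgfc at -0.05. The 3 comparisons share groups, so their values for 1 gene are not independent. Of the 6, 0 had unadjusted p under 0.05 against 6.96% of all genes, 0 had groups without overlap against 3.9%, and DESeq2 called 0 against 0.328%. The median difference over all genes tested was -0.017, 0.002 and 0.008 in the 3 comparisons in the order given.

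**Figure D3:**
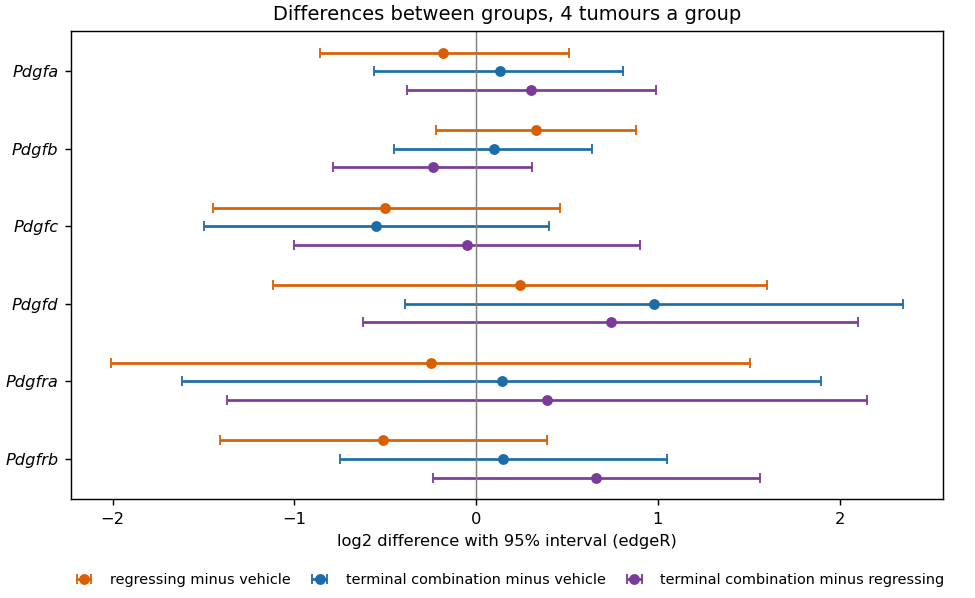
Log2 differences of the 6 PDGF genes between groups of 4 tumours, from edgeR, with 95% intervals as bars. All 18 intervals include 0, and those of Pdgfra are the widest, from -2.01 to 1.51 in regressing minus vehicle.

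Vehicle tumour 2 carried much of the Pdgfra mean in its group. Without it the difference for regressing tumours turned from -0.25 to 0.91 (edgeR adjusted p = 0.615) and the difference for terminal combination tumours went from 0.14 to 1.30 (adjusted p = 0.705). Its low Pdgfb also bore on that gene, since the difference for regressing tumours was 0.14 and that for terminal combination tumours -0.10 without it. Among the 8 libraries whose titles lack FFT, a set that leaves out vehicle tumours 1 and 2, Pdgfra was 1.15 higher in regressing than in vehicle tumours, and Pdgfb stood at -0.05 in terminal combination against vehicle tumours. Skeletal muscle genes differed in level between tumours, their sum lying between 547 and 9265 CPM in vehicle, 3927 and 53990 in regressing, and 2735 and 33680 in terminal combination tumours. With a score of these genes as a covariate, Pdgfra was 0.23 higher in regressing than in vehicle tumours. Adipocyte genes summed to 17.9 to 136 CPM in vehicle against 255 to 2260 in regressing tumours, so that these groups did not overlap. With a score of the adipocyte genes as a covariate, regressing against vehicle stood at -1.25 for Pdgfra, -1.56 for Pdgfrb and 1.56 for Pdgfd. The score itself ran up to 2.52 in vehicle and from 3.95 in regressing tumours, so score and group cannot be cleanly told apart there. The direction of the Pdgfra difference thus depended on the setting, its values ranging from -1.25 to 1.15. None of the 378 values computed for the members under other settings had an adjusted p under 0.479.

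The balance of related members was compared between tumours as a log2 ratio of CPM, with 0.5 CPM added to each gene. The lengths of the genes in a ratio are the same in every tumour, so a ratio can be compared between tumours, but its size does not give the relative level of its genes. Pdgfra over Pdgfrb was -0.69, 1.93, -0.02 and -0.37 in vehicle, 1.11, 0.44, -0.08 and 1.79 in regressing, and 1.43, 1.27, -0.62 and -0.70 in terminal combination tumours. It was highest in vehicle tumour 2 and lowest in terminal combination tumour 4. The mean was 0.60 higher in regressing than in vehicle tumours, with SDs of 0.81 and 1.18 (exact two-sided permutation p = 0.457, n = 4 each). Pdgfb over Pdgfa averaged -0.41 ± 0.48 in vehicle, 0.19 ± 0.56 in regressing and -0.38 ± 0.57 in terminal combination tumours, and regressing exceeded vehicle by 0.60 (exact p = 0.200). Pdgfd over Pdgfc averaged -3.54 ± 1.18, -2.75 ± 2.0 and -2.17 ± 1.16, and terminal combination exceeded vehicle tumours by 1.37 (exact p = 0.171). Adjusted over the 9 tests of 3 ratios, p lay between 0.686 and 0.971. With 70 arrangements the smallest p possible was 0.0286.

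How the members varied together was examined over the 12 tumours with log2 CPM, in 15 pairs. Pdgfd ran against the other CUB-domain ligand Pdgfc, with Pearson r = -0.58 and Spearman rho = -0.66 (permutation p = 0.0470 and 0.0211, adjusted 0.235 and 0.186). Without the 2 tumours farthest from the median of Pdgfc, r was -0.78, and with values centred within groups -0.63. Pdgfd also ran against Pdgfb (r = -0.58, rho = -0.55, permutation p = 0.0468 and 0.0670, adjusted 0.235 and 0.335). Pdgfa and Pdgfc had r = 0.62 but rho = 0.27 (permutation p = 0.0386 and 0.392, adjusted 0.235 and 0.732). Their r fell to 0.09 without regressing tumour 4 and terminal combination tumour 1, the 2 tumours farthest from the median of Pdgfa. Which of these tumours the relation rested on was not tested. The receptors had r = 0.52 and rho = 0.42 (permutation p = 0.0825 and 0.177, adjusted 0.309 and 0.443), and r = 0.30 without vehicle tumour 2 and terminal combination tumour 2. No pair passed the threshold after adjustment.

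The members were also set beside marker scores, each the mean log2 CPM of a list of cell type genes, in 66 relations of 6 genes with 11 lists. The largest Pearson r of the 66 was that of Pdgfb with pericyte and vascular smooth muscle markers (r = 0.79, rho = 0.73, permutation p = 0.00209 and 0.00871, adjusted 0.138 and 0.287). It remained without vehicle tumours 2 and 3 (r = 0.90), with values centred within groups (0.76) and among the 8 libraries lacking FFT (0.70), yet it did not pass adjustment. Pdgfb with T and B cell markers had a higher rho but a lower r, given under other observations. Pdgfb with endothelial markers had r = 0.70 and rho = 0.61 (permutation p = 0.0117 and 0.0403, adjusted 0.386 and 0.549). That r was 0.17 without vehicle tumour 2 and terminal combination tumour 3, the tumours farthest from the median of the endothelial score. Pdgfrb, which pericytes carry, had r = 0.00 and rho = -0.01 with the pericyte list, and r = 0.00 with fibroblast markers. Pdgfra had r = 0.35 and rho = 0.46 with fibroblast markers (permutation p = 0.262 for r). Platelet markers were sparse, with 3 of 7 passing the filter and Gp1bb at 0 in every library.

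**Figure D4:**
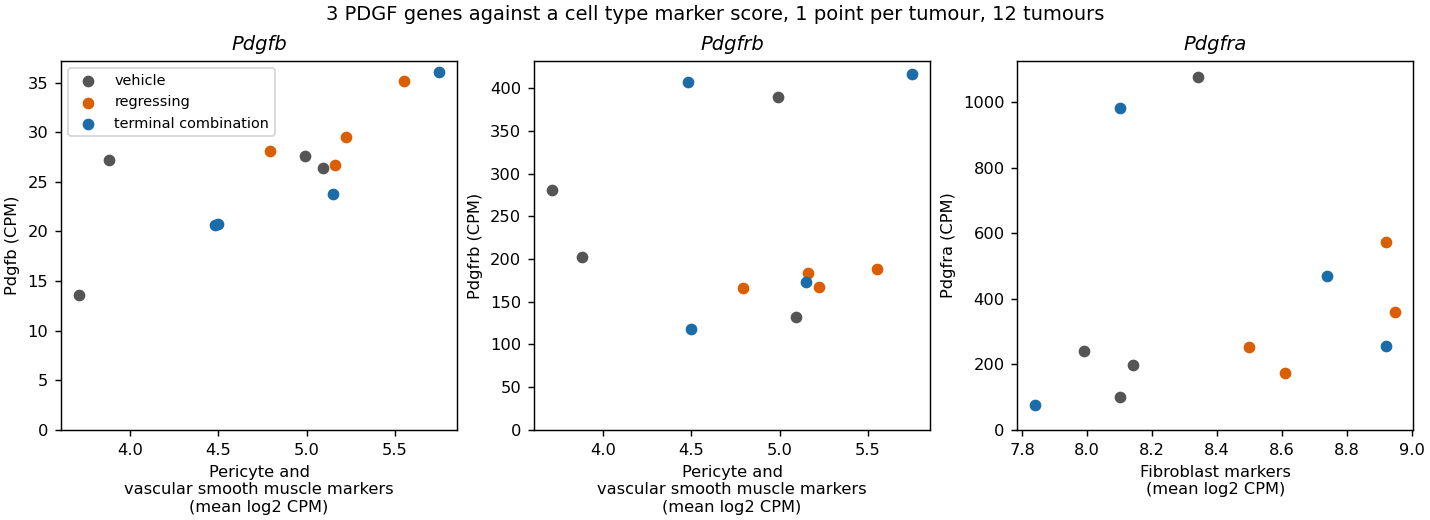
CPM (linear axis) of Pdgfb, Pdgfrb and Pdgfra against a cell type score (mean log2 CPM of the list) in each of the 12 tumours, coloured by group. Over log2 CPM, r with the pericyte and vascular smooth muscle score is 0.79 for Pdgfb and 0.00 for Pdgfrb, and vehicle tumour 2 is lowest in both Pdgfb and the pericyte score.

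The tested genes outside the family whose log2 CPM followed each member most closely over the 12 tumours are given as a description, with the Pearson r. They were Frem1 (0.962), Prkg2 (0.915) and Foxs1 (0.906) for Pdgfa, and Nxpe4 (0.905), Tgfbrap1 (0.890) and She (0.885) for Pdgfb. For Pdgfc they were Enpp1 (0.913), Heatr5a (0.912) and Mfsd2a (0.905), and for Pdgfd Dele1 (0.829), Atp6v0e2 (0.826) and Skiv2l (0.817). For Pdgfra they were 4930523C07Rik (0.958), Ostf1 (0.950) and Lin52 (0.949), and for Pdgfrb Syap1 (0.898), Nhs (0.866) and Hist2h2be (0.853). Between members the highest r was 0.62, for Pdgfa with Pdgfc.

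Proteases that process PDGF ligands were the first of 6 lists of related genes, and all 7 were tested. None passed in edgeR, and their median difference was -0.09 in regressing, 0.10 in terminal combination against vehicle tumours and -0.01 between the treated groups. In regressing tumours, 2 of 7 were lower without overlap (4.13% of all genes) and 1 was higher without overlap (3.5%). Plat encodes tissue plasminogen activator, which cleaves the CUB domain from PDGF-C. Its CPM were 244.2, 138.4, 148.6 and 136.8 in vehicle, 67.7, 99.8, 86.2 and 60.2 in regressing, and 275.3, 296.1, 141.4 and 216.9 in terminal combination tumours. All 4 regressing tumours were below all 8 others. The difference from vehicle was -1.09 (SE 0.27, edgeR adjusted p = 0.247, DESeq2 adjusted p = 0.0162), and terminal combination tumours were 1.57 higher than regressing tumours (SE 0.28, edgeR adjusted p = 0.531, DESeq2 adjusted p = 0.000204), so the call depended on the tool. That comparison had 1 of 7 higher without overlap, Plat, against 2.4% of all genes. Pdgfc, the substrate, had overlapping groups in the same tumours.

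Furin, a convertase that cuts PDGF-A and PDGF-B precursors, was 217 ± 23.4 CPM in vehicle and 157 ± 18.1 in regressing tumours (SD, n = 4 each), a difference of -0.47 without overlap (SE 0.16, edgeR adjusted p = 0.284). Pcsk6, another convertase, was 10.1 ± 1.39 and 28.7 ± 5.46 CPM, 1.5 higher in regressing tumours without overlap (SE 0.65, adjusted p = 0.372). With the adipocyte score as a covariate Pcsk6 was at -0.16. That score did not overlap between vehicle and regressing tumours, so score and group cannot be cleanly told apart. In terminal combination tumours Pcsk6 was 5.33 to 6.19 CPM in 3 tumours and 48.0 in tumour 4.

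Proteins that bind PDGF or join its receptors made a list of 4, of which 0 passed and whose medians were 0.37, 0.18 and 0.01 in the 3 comparisons. Lrp1, an endocytic receptor that associates with the beta receptor, was 543 ± 148, 723 ± 119 and 915 ± 286 CPM in the 3 groups (SD, n = 4 each), with terminal combination against vehicle at 0.75 (SE 0.26, edgeR adjusted p = 0.831). Sparc, a matrix protein that binds PDGF-B, was among the abundant transcripts at 5041 ± 834, 6618 ± 1252 and 5485 ± 824 CPM. Pdgfrl, a receptor-like gene, averaged 49.1, 62.3 and 58.1 CPM.

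Proteins that dock on the activated receptors or carry its signal to RAS and phosphoinositide 3-kinase made a list of 22, of which 0 passed in edgeR. In regressing against vehicle tumours 8 were higher and 14 lower, with a median of -0.08, while 48.5% of all genes tested were higher. The medians were 0.03 and 0.20 in the other comparisons. Yes1, a kinase of the Src family, was 25.9 ± 3.97 CPM in vehicle, 16.04 ± 3.14 in regressing and 20.2 ± 1.03 in terminal combination tumours (SD, n = 4 each). Its difference was -0.69 in regressing tumours (SE 0.18, edgeR adjusted p = 0.247, DESeq2 adjusted p = 0.0137), and it was 1 of 22 lower without overlap in each treated group, against 4.13% and 1.3% of all genes. Stat5b was 39.7 ± 5.54 and 73.4 ± 25.8 CPM in vehicle and regressing tumours, 0.89 higher without overlap (SE 0.33, adjusted p = 0.313), 1 of 22 against 3.5%. Nck2, an adaptor, was 0.59 higher in terminal combination than in regressing tumours (SE 0.20, adjusted p = 0.705), 1 of 2 genes of the list that were higher there without overlap, against 2.4% of all genes.

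Phosphatases and ubiquitin ligases that switch the receptors off numbered 7, and 0 passed. All 7 had lower fitted values in terminal combination than in vehicle tumours, from -0.05 for Cbl to -0.55 for Cblb, with a median of -0.17. Of all genes tested, 50.3% were higher in that comparison. Acp1, a low molecular weight tyrosine phosphatase, was at -0.36 there (SE 0.16, edgeR adjusted p = 0.831). In regressing against vehicle tumours the ubiquitin ligase gene Cblb was at -0.66 (SE 0.37, adjusted p = 0.474) and the phosphatase gene Ptpn12 at -0.28 (adjusted p = 0.515), which were -0.38 and -0.11 without vehicle tumour 3.

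The related family of VEGF, KIT and CSF1 receptors and their ligands held 15 genes, of which 0 passed. In regressing against vehicle tumours 11 were higher and 4 lower, while 48.5% of all genes tested were higher. The median of the list was 0.33 in that comparison, which was 0.15 without vehicle tumour 2. Flt3l, a cytokine gene near the lower end of what was counted, was 1.45 higher there (SE 0.53, edgeR adjusted p = 0.303), and 0.80 higher without regressing tumour 4. Il34, a ligand of the CSF1 receptor, was 38.2 ± 18.6 CPM in vehicle and 77.0 ± 20.1 in terminal combination tumours (SD, n = 4 each), 1.01 higher without overlap (SE 0.38, adjusted p = 0.831), 1 of 15 against 1.21% of all genes. Vegfa, the vascular growth factor, was 21.4 ± 5.82 CPM in regressing and 42.3 ± 17.0 in terminal combination tumours, 0.98 higher without overlap (SE 0.34, adjusted p = 0.705), 1 of 15 against 2.4%.

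Genes classically induced when fibroblasts are given PDGF numbered 11, and 0 passed. In regressing and in terminal combination against vehicle tumours, 9 were lower and 2 higher, with medians of -0.88 and -0.87. Of all genes tested, 48.5% and 50.3% were higher in these comparisons. The lower values of this list did not persist without vehicle tumour 2, the only tumour left out for the list as a whole. Without it 5 were lower and 6 higher in either comparison, with medians of 0.05 and 0.14. Fos, an immediate early transcription factor, was 362.8 CPM in that tumour and 5.08 to 34.3 in the other vehicle tumours, and Ier2, another immediate early gene, was 238 against 33.9 to 41.3. Vehicle tumour 2 was the tumour with the highest Pdgfra and the lowest Pdgfb. Myc was 170 ± 145 CPM in vehicle and 70.9 ± 22.9 in regressing tumours (SD, n = 4 each), a difference of -1.26 (SE 0.47, edgeR adjusted p = 0.310). It was -0.47 without vehicle tumour 3 (384 CPM, edgeR adjusted p = 0.640). With the adipocyte score, which did not overlap between these groups, as a covariate it turned to 0.22.

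**Figure D5:**
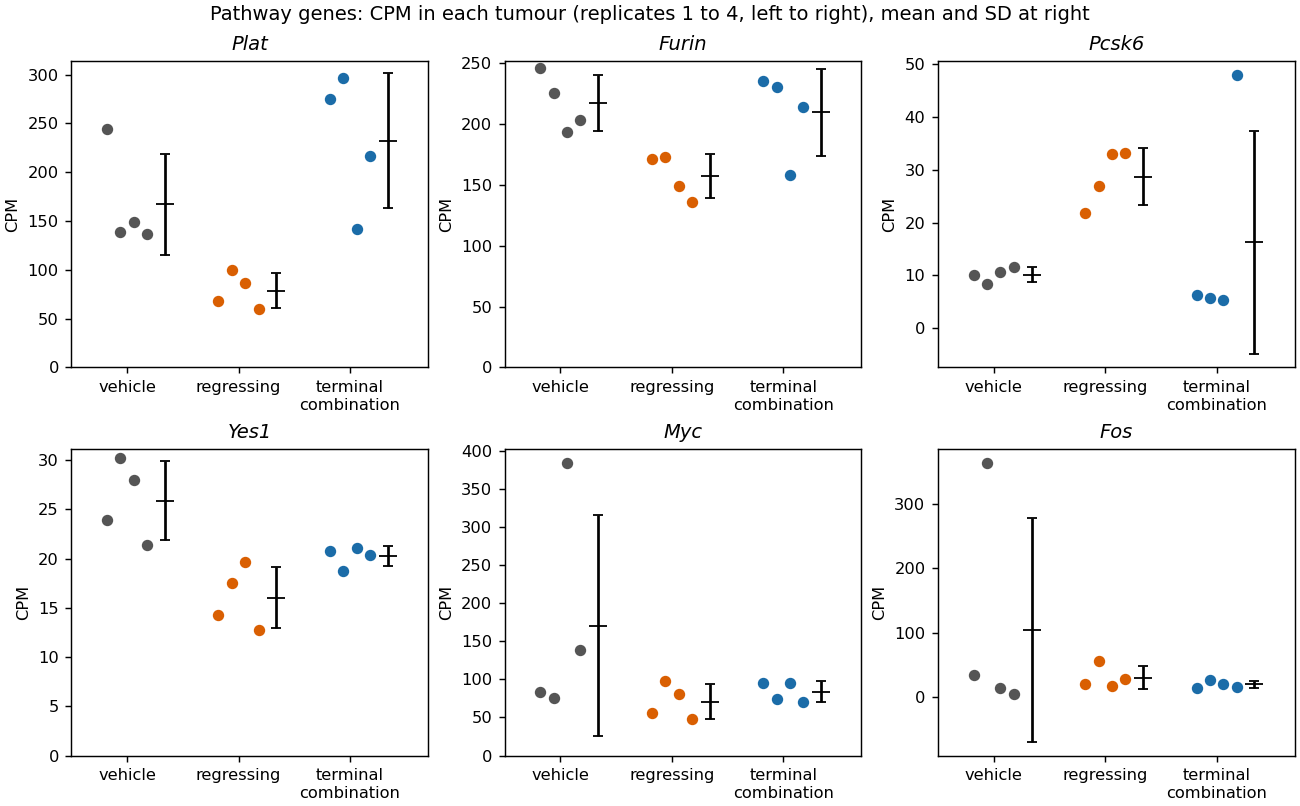
CPM (linear axis) of 6 genes related to PDGF signalling in the vehicle, regressing and terminal combination tumours, 1 point a tumour, with the mean and SD of 4 at the right of each group. Plat is lower in the 4 regressing tumours (60.2 to 99.8 CPM) than in the 8 others, and a single vehicle tumour is far above the rest in Fos.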

How the data were processed

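Bulk RNA from 12 tumours was analysed. Per the labels' protocols, an RNeasy mini kit was used for RNA and a TruSeq Stranded mRNA kit for libraries. The authors deposited raw counts, as whole numbers for each Ensembl gene. Per the submitters' processing notes, HISAT2 2.2.1, Salmon, DESeq2 1.24.0 and the builds mm10 and GRCm38.p6 were used; which tool counted, and on which strand, is not given in the sources used here. Symbols and positions came from GENCODE M21, in which 54495 of 54532 identifiers were found.

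The treatment and harvest labels gave the groups, and replicate numbers are accession order only. Genes kept by filterByExpr (minimum count 10, minimum total 15) were scaled by TMM and tested with the robust quasi-likelihood test of edgeR 4.0.16 in R 4.3.3, with all 12 libraries in 1 fit, Benjamini-Hochberg adjustment over all genes tested and a threshold of 0.05. The 95% intervals use the t quantile of the fit. DESeq2 1.42.0 was run on the same filtered genes. Ratios had exact permutation tests. Correlations of log2 CPM (prior count 2) had 100000 permutations. The code was tested on simulated data.

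Named genes were the 6 members, the 3 genes of each list with the smallest p in the test over 3 groups, and the 3 genes most correlated with each member. The members and lists were chosen with earlier results of these data known. Alternatives covered the normalisation, the tool, the filter, the libraries compared, the title ending FFT, muscle and adipocyte scores, each library in turn, and the pseudocount. Limits from a count of 3 reads cover counting error only, while the intervals of differences include the spread between libraries.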

Additional observations from a re-analysis of the deposited data

Results flagged for a closer look

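Among 87 groups of 4 tumours examined for a single value far from the other 3, 9 had one. The rule was a gap to the nearest value above 0.829 of the range (Dixon's critical value). It flags about 1 in 20 groups of independent, normally distributed values. CPM need not be normally distributed and the genes share the same tumours, so the count cannot be judged against that rate. Vehicle tumour 2 held 4 of the 9. It had the lowest Pdgfb, 13.6 CPM against 26.4 to 27.6 in the other vehicle tumours, and the highest Pdgfra, 1075 CPM against 101.7 to 241.9. It also had the highest Fos, 362.8 CPM against 5.08 to 34.3, and the highest Ier2, 238 CPM against 33.9 to 41.3.

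The other 5 lay in different tumours and genes. Plat was 244.2 CPM in vehicle tumour 1 against 136.8 to 148.6 in the others of its group, and Vegfa was 51.8 CPM in vehicle tumour 3 against 23.4 to 25.0. In terminal combination tumours, Pcsk6 was 48.0 CPM in tumour 4 against 5.33 to 6.19, Nck2 was 64.6 CPM in tumour 2 against 41.7 to 45.3, and Ptpn12 was 44.6 CPM in tumour 1 against 55.2 to 56.4.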

How the results depend on the processing

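The PDGF genes were not called under any alternative. Some of their differences changed sign between settings and others kept 1 sign throughout, as the ranges below show. The cause of each change below was not tested. DESeq2 called 483, 14 and 51 genes in the 3 comparisons in the order of the report against 0 in edgeR, among them Plat (-1.08 in regressing against vehicle, 1.57 in terminal combination against regressing) and Yes1 (-0.67 in regressing against vehicle). With values centred within groups 1 of 66 relations passed, Pdgfa with Schwann lineage markers (r = 0.88, adjusted permutation p = 0.00924). That permutation shuffled the centred values across all tumours and made no allowance for the group means removed. Its p is therefore too small, and whether the relation passes under a shuffle within groups was not tested. The r of Pdgfa with these markers was 0.48 uncentred (adjusted permutation p = 0.609) and 0.50 without the 2 farthest tumours. It was 0.50 among libraries lacking FFT and 0.44 with a prior count of 0.5.

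Over all 21 alternatives, regressing against vehicle ranged from -0.42 to 0.08 for Pdgfa, 0.05 to 0.43 for Pdgfb, -0.76 to 0.07 for Pdgfc, -0.88 to 1.56 for Pdgfd, -1.25 to 1.15 for Pdgfra and -1.56 to 0.10 for Pdgfrb. Terminal combination against vehicle ranged from -0.07 to 0.45, -0.12 to 0.18, -0.67 to -0.16, 0.47 to 1.54, -0.62 to 1.54 and -0.56 to 0.91, and terminal combination against regressing from 0.03 to 0.54, -0.46 to -0.12, -0.69 to 0.21, -0.02 to 1.91, -0.34 to 0.81 and 0.34 to 1.00, in the same order of genes.

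In regressing against vehicle tumours, libraries lacking FFT gave Pdgfc 0.02, Pdgfd -0.14, Pdgfra 1.15, Pdgfrb 0.10, Ier2 0.06 and Pdgfd over Pdgfc -0.01. FFT as a covariate gave Pdgfra 0.28, and the muscle score as a covariate Pdgfra 0.23 and Ier2 0.15. The adipocyte score, which did not overlap between these groups, gave Pcsk6 -0.16, Pdgfrl -0.09 and Myc 0.22. Without the 3 libraries richest in muscle genes, Pdgfa was 0.08, Pdgfc 0.07, Pdgfd -0.88, Pdgfra over Pdgfrb -0.04 and Pdgfd over Pdgfc -0.89. In terminal combination against vehicle tumours, libraries lacking FFT gave Pdgfb -0.05, Fos 1.09 and Pdgfb over Pdgfa -0.55. The muscle score gave Pdgfa -0.07, Pdgfb -0.05 and Pdgfrb -0.17, and the adipocyte score Pdgfa -0.02, Pdgfb -0.07, Pdgfra -0.44 and Pdgfrb -0.56. Without the 3 muscle-rich libraries, Pdgfra was -0.62, Pdgfrb -0.10 and Pdgfra over Pdgfrb -0.17. Between the treated groups the adipocyte score gave Pdgfc 0.02 and Pdgfd -0.02.

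Leaving out each library in turn gave ranges that crossed 0 for some genes and ratios. In regressing against vehicle tumours they were -0.34 to 0.03 for Pdgfa, -0.26 to 0.64 for Pdgfd, -0.62 to 0.91 for Pdgfra and -1.44 to 0.05 for Ier2. In terminal combination against vehicle tumours they were -0.02 to 0.33 for Pdgfa, -0.12 to 0.18 for Pdgfb, -0.59 to 1.30 for Pdgfra, -0.11 to 0.45 for Pdgfrb, -2.78 to 0.14 for Fos, -0.23 to 0.71 for Pdgfra over Pdgfrb and -0.22 to 0.23 for Pdgfb over Pdgfa. Between the treated groups they were -0.36 to 0.21 for Pdgfc, -0.34 to 0.76 for Pdgfra and -0.14 to 1.27 for Pdgfd over Pdgfc. The number of genes called there, and over the 3 groups jointly, ran from 0 to 1, the 1 without terminal combination replicate 4. No paired analysis was possible because replicate numbers are accession order only.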

Other observations

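The chromosomal neighbours of the receptor genes encode receptors of the same wider family, and their values were read after those of the members were known. Kit starts 377 kb beyond the end of Pdgfra on chromosome 5, with no protein-coding gene between, and Kdr 735 kb beyond it. Where Pdgfra was highest, in vehicle tumour 2 (1075 CPM) and terminal combination tumour 2 (980.3 CPM), Kit was 4.72 and 7.92 CPM within a range of 3.08 to 19.7 over the 12 tumours. Kdr, the main endothelial VEGF receptor, was 31.5 and 39.9 CPM in those tumours within a range of 28.2 to 72.2. Neither neighbour was thus at its highest in the tumours with the highest Pdgfra. Csf1r, the receptor of macrophages, lies 15.5 kb beyond Pdgfrb on chromosome 18 and ranged from 218 to 788 CPM. Its lowest value was in vehicle tumour 2, where Pdgfrb was 281.1 CPM and the fourth highest of the 12.

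Pdgfb had a rank correlation of 0.83 with T and B cell markers over the 12 tumours (permutation p = 0.00163, adjusted over 66 relations 0.108), while Pearson r was 0.49 (permutation p = 0.115, adjusted 0.609). Without regressing tumour 4 and terminal combination tumour 2, r was 0.64.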
